A study of Mus musculus with 19 samples.

Results

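CCR1/2+ve monocytes are bone marrow monocytes that expressed the chemokine receptors CCR1 and CCR2 together. Those of inflamed mice were compared with those of resting mice, to find how the transcriptome of this population differed between the 2 states. The libraries were chosen by their group labels alone and comprised inflamed replicates 2, 3 and 4 and resting replicates 1, 2, 3 and 4, which is 7 of the 19 libraries of the series. The other libraries were 4 of resting and 4 of inflamed CCR2+ve monocytes and 4 of inflamed CCR1+ve monocytes, of which the CCR2+ve libraries are used below.

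All mice were female and 8 to 12 weeks old. They carried fluorescent reporters of CCR1, CCR2, CCR3 and a further chemokine receptor (REP mice), and the cells were sorted from bone marrow by the reporters of CCR1 and CCR2, so the gate required both receptors in either state. By the methods of the study, inflammation was produced by a subcutaneous osmotic pump that released IL-3, IL-6, GM-CSF and IFN-α for a week, and the marrow was taken at the end of the infusion. Whether the resting mice carried pumps with vehicle, and whether a library came from 1 mouse or from several, is not given, so the p-values measure the spread between these libraries. Whether resting and inflamed libraries were prepared and sequenced together is also not given, so a difference in preparation cannot be told apart from one of state. The model is an infusion of 4 defined cytokines and contains no microbe.

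Classical monocytes leave the bone marrow through CCR2 and enter inflamed tissue, where they differentiate to macrophages or dendritic cells. GM-CSF and IL-3 signal through receptors that share a common beta chain and act on JAK2 and STAT5. IL-6 acts through gp130, JAK1 and STAT3, and IFN-α acts through IFNAR1 and IFNAR2, the kinases TYK2 and JAK1, and a complex with STAT2 and IRF9 that binds interferon-stimulated response elements in the promoters of antiviral genes. Each pathway induces its own inhibitors, among them the SOCS proteins and CISH.

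Reads on genes numbered 23846583 to 30502009 in the resting and 22268658 to 24444993 in the inflamed libraries. Between 18580 and 20020 genes were detected in resting and between 17011 and 17729 in inflamed libraries, and mitochondrial genes took 0.585% to 0.987% and 0.320% to 0.544% of the reads. The first principal component held 53.7% of the variance and separated the states without overlap, with scores of -91.0 to -71.8 for resting and 95.6 to 115 for inflamed libraries (exact two-sided permutation test, p = 0.0571, the smallest value that 35 arrangements of 3 against 4 libraries allow). The second component set resting replicates 1 and 2 and inflamed replicate 2 apart from the other 4 libraries. Among 2222 called genes with a mean of at least 16 CPM (read counts scaled to library size with TMM factors), the highest inflamed value exceeded the lowest by over 2 times in 284 genes, and in 267 of these inflamed replicate 2 was the lowest. The resting libraries differed this much in 66 genes.

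Of 18652 genes tested, 1709 were upregulated (9.16%) and 3612 were downregulated (19.4%) in inflamed cells, at an adjusted p below 0.05 and a change of at least 2-fold (quasi-likelihood F test of edgeR, Benjamini-Hochberg adjustment over these genes). The values of the 2 states did not overlap in 1644 and 3496 of these genes. Called genes were picked for their difference, so this is no separate support, and the share among all genes tested was not counted. The shares of 9.16% and 19.4% are the background for the counts of each gene list below. The median gene shifted by -0.25 on the log2 scale, a shift that was -0.06 under upper quartile scaling, where 43.1% of the called genes were upregulated compared with 32.1% here. Of the downregulated genes 2328 had a mean below 16 CPM, about the same share as among all genes tested, of which 11987 did. Among the 6661 genes above that level 14.1% rose and 19.3% fell. All levels below are CPM and follow replicates 1, 2, 3 and 4 for resting and 2, 3 and 4 for inflamed libraries. All changes are log2 fold changes of inflamed over resting with an approximate standard error. It is the size of the change divided by the square root of its F value. All adjusted p-values come from the same edgeR fit over all genes tested.

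Genes of the monocyte core list were abundant in both states. The 26 genes summed to 61320 to 81360 CPM in resting and 72980 to 80960 CPM in inflamed libraries. Most of this sum came from Lyz2 and Chil3, so it says little about the rest of the list. Of the 26 genes 5 rose (19.2%) and 6 fell (23.1%), where 9.16% and 19.4% of all genes did. Vcan, Irf8, Klf4 and Chil3 were among those that fell. Lyz2, which encodes lysozyme, was measured at 30469, 25438, 34375 and 28888 in resting and 32812, 37424 and 36396 in inflamed libraries (log2 fold change 0.25 ± 0.10, adjusted p = 0.0592), so the groups overlapped. Ly6c2, part of the Ly6C antigen of classical monocytes, was 2554 to 3073 in resting and 1700.2 to 2273 in inflamed libraries, a change of -0.43 ± 0.11 below the cutoff. The gene shares most of its sequence with Ly6c1. Mpeg1, which encodes perforin-2, rose from 1352, 1181, 1512 and 1472 to 2927, 3576 and 2952 (log2 fold change 1.19 ± 0.11, adjusted p = 2.86e-06). Csf1r, the receptor of the growth factor M-CSF, rose from 478, 365, 505 and 411 to 903, 1185 and 1126 (log2 fold change 1.29 ± 0.13, adjusted p = 6.92e-06). Vcan, which encodes versican, fell from 58.9, 61.7, 64.2 and 68.2 to 17.6, 22 and 23.9 (log2 fold change -1.58 ± 0.13, adjusted p = 1.22e-06). In bulk libraries such as these, fewer cells of a type and less RNA per cell cannot be told apart.

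Receptors of the infused cytokines changed in opposite directions. Of the 7 tested, 2 rose and 3 fell. Csf2ra (ENSMUSG00000059326, chr19:61223957-61228429), the ligand-binding chain of the GM-CSF receptor, was 661, 712, 685 and 688 CPM in resting and 27.6, 40 and 54.6 CPM in inflamed libraries. Every inflamed value lay far below every resting value (log2 fold change -4.07 ± 0.22, adjusted p = 2.6e-07). The shared beta chain Csf2rb (ENSMUSG00000071713, chr15:78325752-78353847) was 173, 163, 182 and 176 in resting and 699, 602 and 572 in inflamed libraries, with all inflamed values higher (log2 fold change 1.85 ± 0.09, adjusted p = 2.71e-08). Csf2rb2, the beta chain that in mice serves IL-3 alone, was 17.1, 15.8, 22 and 12 in resting and 122, 111 and 108 in inflamed libraries (log2 fold change 2.77 ± 0.17, adjusted p = 1.47e-07). The 2 beta chain genes are close copies, so uniquely aligned reads cover only the parts in which they differ and the split between them is uncertain.

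Il6ra (ENSMUSG00000027947, chr3:89864059-89913196), the ligand-binding chain of the IL-6 receptor, fell from 325, 333, 352 and 332 to 91.6, 97.8 and 96.6 (log2 fold change -1.81 ± 0.08, adjusted p = 1.53e-08). Il6st, which encodes the signalling chain gp130, was at or below 0.223 CPM in all 7 libraries, so no difference could be detected at this depth. Of the IFN-α receptor, Ifnar2 fell from 131, 111, 125 and 112 to 30.5, 37.9 and 37.5 (log2 fold change -1.76 ± 0.12, adjusted p = 2.44e-07). Ifnar1 was 172, 155, 139.9 and 137 in resting and 48.4, 93.7 and 155 in inflamed libraries. Inflamed replicate 4 lay within the resting range and replicate 2 far below it, and the gene was not called (log2 fold change -0.60 ± 0.32, adjusted p = 0.159). Without replicate 4 it was called at -1.09. Il3ra was not analysed here.

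**Figure D1:**
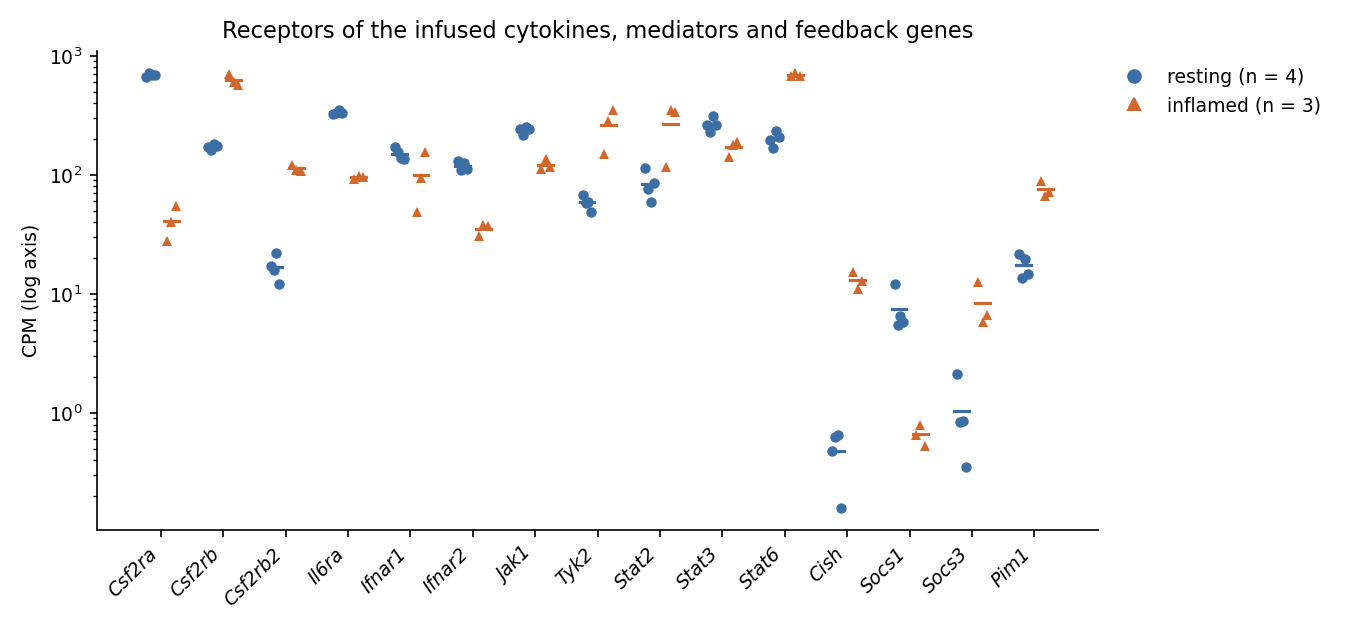
Levels in CPM (log axis) of the receptor genes of the infused cytokines, of JAK-STAT genes and of feedback genes in each library. Circles are the 4 resting and triangles the 3 inflamed CCR1/2+ve libraries, bars are group means. Csf2ra and Il6ra lie lower and Csf2rb, Cish and Pim1 higher in every inflamed library, and the inflamed values of Ifnar1, Tyk2 and Stat2 are widely spread.

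Among the JAK-STAT genes, 5 of 11 rose and none fell at the 2-fold cutoff, where 9.16% and 19.4% of all genes did. The number that rose was 3 where replicates 1 and 2 were fitted apart from 3 and 4, and 1 gene fell without inflamed replicate 3 or 4. Stat6, which mediates IL-4 and IL-13 signals, rose from 198, 169.6, 232 and 207 to 678, 724 and 682 (log2 fold change 1.79 ± 0.11, adjusted p = 9.53e-08). Tyk2, a kinase of the IFN-α receptor, rose from 67.5, 58.6, 59.8 and 48.9 to 149.7, 284 and 348 (log2 fold change 2.15 ± 0.25, adjusted p = 1.01e-04), and Stat2 from 115, 76.9, 59.4 and 85.1 to 117, 353 and 339.5 (log2 fold change 1.68 ± 0.36, adjusted p = 0.00434). In both genes inflamed replicate 2 was the lowest inflamed library, and for Stat2 it lay within 2 CPM of the highest resting library. Stat5a, which transmits GM-CSF and IL-3 signals, rose from a range of 26.7 to 38.5 to one of 43.9 to 83.8 (log2 fold change 1.20 ± 0.22, adjusted p = 0.00154). Jak1 was 244, 218, 251 and 241 in resting and 113, 136 and 117 in inflamed libraries, and Stat3, the main mediator of IL-6, was 265, 229, 311 and 261 in resting and 143, 179 and 189 in inflamed libraries. All inflamed values of both genes were lower than all resting values, but their changes of -0.97 ± 0.10 and -0.65 ± 0.13 did not reach 2-fold. Without inflamed replicate 3 Jak1 changed by -1.05 and was called.

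Feedback genes of cytokine signalling separated into genes that rose and genes that fell (4 and 3 of 10). Cish (ENSMUSG00000032578, chr9:107296026-107302784), an inhibitor induced by STAT5, was 0.478, 0.628, 0.655 and 0.159 CPM in resting and 15.3, 11.1 and 12.7 CPM in inflamed libraries, the largest rise of the list (log2 fold change 4.77 ± 0.35, adjusted p = 5.38e-07). Socs3, induced by STAT3, rose from 2.13, 0.837, 0.86 and 0.35 to 12.6, 5.77 and 6.63 (log2 fold change 3.0 ± 0.52, adjusted p = 8.87e-04, and 3.66 without resting replicate 1), and the kinase gene Pim1 from 21.8, 13.5, 19.7 and 14.7 to 88.3, 66.9 and 71.6 (log2 fold change 2.12 ± 0.17, adjusted p = 1.4e-06). Usp18, which restrains signalling by the IFN-α receptor, rose from 132, 79.6, 52.9 and 82.5 to 242, 236 and 229.9 (log2 fold change 1.44 ± 0.25, adjusted p = 0.00123). In contrast, Socs1 (ENSMUSG00000038037, chr16:10782240-10785536), an inhibitor induced by interferons, fell from 12, 5.48, 6.47 and 5.86 to 0.658, 0.796 and 0.531 (log2 fold change -3.49 ± 0.37, adjusted p = 1.13e-05). Resting replicate 1 stood far above the other resting libraries, but these also lay above all inflamed values. Ptpn1, a phosphatase of JAK kinases, fell from a range of 304 to 373 to one of 139.9 to 180.0 (log2 fold change -1.11 ± 0.11, adjusted p = 9.52e-06), and by -0.92 without a call under upper quartile scaling.

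The antiviral genes and the interferon-inducible GTPases rose broadly. Their promoters are shown because the core of the interferon-stimulated response element, GAAA followed by any 2 bases and a second GAAA, was more frequent in them than in promoters at large. It was searched on both strands in the 250 bases before the start of each RefSeq gene (GRCm38.p6). It was found in 2.98% of 32851 promoters. Among the 31 antiviral genes matched it was in 12 of 36 promoters (33.3%), and among the 10 GTPase genes matched in 9 of 11 (81.8%). None of the 31 promoters of 19 glycolysis genes held it. Of the feedback and JAK-STAT promoters, 1 of 8 (12.5%) and 2 of 13 (15.4%) held it. The antiviral and GTPase lists were written by hand around interferon responses, so their high shares are no independent evidence. The element TTCNNNGAA is the usual form of the gamma-activated sequence that STAT dimers bind. It was found in 7.02% of all promoters, 13.9% of the antiviral and 54.5% of the GTPase promoters. The shares were 12.5% of the feedback, 6.45% of the glycolysis and 0% of the JAK-STAT promoters. A promoter may hold both patterns, and each was counted on its own. Such matches are a description of sequence and were not tested as binding sites. Below, 250 bases end at the start of each gene, 5′ to 3′ on its strand, with this core or its reverse complement in capitals. The first 4 genes rose, and the last 2 did not pass the test although they hold the same letters.
Oas3, chr5:120777660-120777909 (minus strand): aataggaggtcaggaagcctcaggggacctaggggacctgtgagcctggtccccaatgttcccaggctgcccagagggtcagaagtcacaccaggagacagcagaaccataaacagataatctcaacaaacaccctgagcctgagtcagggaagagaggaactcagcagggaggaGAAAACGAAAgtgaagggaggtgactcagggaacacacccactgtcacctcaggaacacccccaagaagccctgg
Isg15, chr4:156200819-156201068 (minus strand): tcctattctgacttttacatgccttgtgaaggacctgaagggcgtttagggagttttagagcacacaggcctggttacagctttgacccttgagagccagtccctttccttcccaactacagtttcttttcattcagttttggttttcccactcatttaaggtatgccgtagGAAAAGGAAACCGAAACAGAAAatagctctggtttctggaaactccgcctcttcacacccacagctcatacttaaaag
Gbp7, chr3:142530086-142530335 (plus strand): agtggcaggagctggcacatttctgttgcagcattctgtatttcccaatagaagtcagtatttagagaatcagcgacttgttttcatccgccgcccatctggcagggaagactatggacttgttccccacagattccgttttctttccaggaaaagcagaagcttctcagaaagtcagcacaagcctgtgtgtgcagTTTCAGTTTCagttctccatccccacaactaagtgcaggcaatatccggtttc
Gbp2, chr3:142620413-142620662 (plus strand): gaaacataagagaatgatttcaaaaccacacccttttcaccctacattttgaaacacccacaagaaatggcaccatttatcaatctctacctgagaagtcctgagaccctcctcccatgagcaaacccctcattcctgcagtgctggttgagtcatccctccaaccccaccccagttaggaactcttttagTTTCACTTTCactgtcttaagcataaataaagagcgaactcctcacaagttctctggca
Rsad2, chr12:26456453-26456702 (minus strand): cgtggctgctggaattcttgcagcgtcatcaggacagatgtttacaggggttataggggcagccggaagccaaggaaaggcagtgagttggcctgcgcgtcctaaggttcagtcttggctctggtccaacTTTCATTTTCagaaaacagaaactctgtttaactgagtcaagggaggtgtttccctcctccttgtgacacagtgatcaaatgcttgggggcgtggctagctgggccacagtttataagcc
Irgm1, chr11:48871421-48871670 (minus strand): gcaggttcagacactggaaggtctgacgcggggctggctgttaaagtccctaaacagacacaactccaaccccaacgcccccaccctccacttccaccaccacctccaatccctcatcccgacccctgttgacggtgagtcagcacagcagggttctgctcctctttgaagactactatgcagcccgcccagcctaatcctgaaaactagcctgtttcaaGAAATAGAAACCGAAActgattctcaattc

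Of these genes, Oas3, a sensor of double-stranded RNA, was 59.2, 32.4, 26.4 and 39.1 CPM in resting and 369.6, 498 and 438 CPM in inflamed libraries (log2 fold change 3.47 ± 0.26, adjusted p = 5.01e-06). Isg15, a ubiquitin-like modifier, was 40, 21.9, 19.3 and 25.1 in resting and 65.2, 97.3 and 75.8 in inflamed libraries (log2 fold change 1.58 ± 0.25, adjusted p = 7.01e-04). In both, resting replicate 1 was the highest resting library and still below all inflamed libraries. Rsad2, which encodes viperin, was 47.6, 23.4, 22 and 26.8 in resting and 29, 34.3 and 48.2 in inflamed libraries, with resting replicate 1 within the inflamed range (log2 fold change 0.31 ± 0.29, adjusted p = 0.417).

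In all, 26 of 41 antiviral genes rose and 1 fell, with a median change of 1.26 compared with -0.25 for all genes tested. Their summed level was 6623 to 9107 CPM in resting and 15510 to 17840 CPM in inflamed libraries. Eif2ak2, the kinase PKR that stops translation on viral RNA, rose from 88.5, 72.3, 68.7 and 75.2 to 232, 259 and 215 (log2 fold change 1.63 ± 0.11, adjusted p = 2.72e-07), and Ifitm1, a membrane protein that blocks viral entry, from 1.76, 1.6, 2.05 and 1.47 to 21, 13.5 and 11.9 (log2 fold change 3.17 ± 0.24, adjusted p = 7.26e-07). Irf7, a transcription factor that amplifies interferon responses, rose from 278, 153, 126 and 165 to 555, 622 and 586 (log2 fold change 1.70 ± 0.24, adjusted p = 3.02e-04). Ly6e rose by only 1.08 ± 0.09, from a range of 2239 to 2522 to one of 4546 to 5548, and by 1.00 without inflamed replicate 3, just below the cutoff. Cmpk2 (ENSMUSG00000020638, chr12:26469204-26479837), a nucleotide kinase whose gene lies beside Rsad2, moved against the list and fell from 228, 225, 214 and 252 to 28.3, 40.1 and 31.9 (log2 fold change -2.78 ± 0.13, adjusted p = 1.82e-08). Ifitm3 was 1742, 1157, 1408 and 1598 in resting and 2228, 2535 and 2213 in inflamed libraries, a change of 0.66 ± 0.13 that stayed below the cutoff. Ifi27l2a was 641, 344, 305 and 441 in resting and 640.1, 524 and 685 in inflamed libraries, and its groups overlapped.

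The interferon-inducible GTPases attack the vacuoles of intracellular pathogens. Of 16 tested, 14 rose and none fell (median 2.06; without inflamed replicate 3, 10 rose with a median of 1.47, and 9 rose with replicates 3 and 4 alone), and their summed level was 538 to 826 CPM in resting and 1433 to 3363 CPM in inflamed libraries. Gbp7 rose from 116, 76.7, 83.6 and 66.4 to 445, 616 and 387 (log2 fold change 2.49 ± 0.22, adjusted p = 1.35e-05), Gbp9 from 48.7, 28.9, 25.3 and 26.9 to 122, 236 and 138 (log2 fold change 2.35 ± 0.29, adjusted p = 1.43e-04) and Irgm2 from 64.1, 44, 46.1 and 43.6 to 126, 275 and 148 (log2 fold change 1.89 ± 0.27, adjusted p = 3.31e-04). Gbp2 rose from 64.5, 38, 41.7 and 44.3 to 83, 388 and 124 (log2 fold change 2.08 ± 0.47, adjusted p = 0.00577). Inflamed replicate 3 was the highest library for all 4 genes, by the widest margin for Gbp2, which changed by 1.14 without that library. Without resting replicate 2 its change of 2.02 was not called. Irgm1 was 153, 100.5, 85.9 and 116 in resting and 99.9, 235 and 118 in inflamed libraries, and Iigp1 was 8.34, 7.05, 2.38 and 3.82 in resting and 1.69, 35.3 and 8.53 in inflamed libraries. In both the groups overlapped and the gene was not called. Without inflamed replicate 3 their changes were -0.06 and -0.07, and without inflamed replicate 2 Iigp1 was called at 2.01. Several GTPase genes lie in arrays of close copies, and their reads may be divided unevenly among them.

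MHC class II genes rose in part and MHC class I genes did not rise together. For class II, 3 of 14 genes rose (21.4%) and 1 fell (7.14%), where 9.16% and 19.4% of all genes did. Without resting replicate 1, 5 rose. Cd74, the invariant chain, rose from 339.8, 139, 131 and 163 to 836, 1061 and 886 (log2 fold change 2.26 ± 0.32, adjusted p = 3.25e-04), and Ciita, the transactivator of class II genes, from 2.39, 1.95, 0.41 and 0.701 to 7.33, 10.5 and 5.93 (log2 fold change 2.53 ± 0.51, adjusted p = 0.00252). H2-Aa, the alpha chain of I-A, was 47.4, 13.2, 11.2 and 16.9 in resting and 56.3, 62.6 and 51 in inflamed libraries (log2 fold change 1.35 ± 0.45, adjusted p = 0.0363). Resting replicate 1 was the highest resting library for all 3 genes. H2-Aa lost its call when resting replicate 2, 3 or 4 or inflamed replicate 2 or 3 was left out (1.13 to 1.35), and changed by 2.08 with a call without resting replicate 1. For class I, 1 of 18 genes rose (5.56%) and 1 fell (5.56%), with a median change of 0.00. In this list 3 rose without inflamed replicate 2 and 3 fell without inflamed replicate 3. Nlrc5, the transactivator of class I genes, rose from 22.3, 20.6, 12.1 and 14.4 to 56.5, 102 and 55.9 (log2 fold change 2.04 ± 0.28, adjusted p = 2.56e-04). H2-D1 (ENSMUSG00000073411, chr17:35262730-35267499), a class I heavy chain, fell from 3659.9, 3192, 3795 and 3951 to 262, 482 and 665 (log2 fold change -2.96 ± 0.29, adjusted p = 2.95e-05). B2m, the light chain of class I, was 3327, 3031, 3439 and 3709 in resting and 2131, 2580.1 and 2077 in inflamed libraries, a change of -0.58 ± 0.10. H2-D1 belongs to a family of near-identical genes, so its value is uncertain under counting of uniquely aligned reads.

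Of the chemokine receptors CCR1, CCR2 and CCR3, which the reporters mark, Ccr1 rose, Ccr3 fell and Ccr2 stayed below the cutoff. Ccr1 (ENSMUSG00000025804, chr9:123962124-123968692) was 115, 101, 128 and 139 CPM in resting and 408, 219.9 and 290.0 CPM in inflamed libraries (log2 fold change 1.34 ± 0.19, adjusted p = 3.15e-04). Inflamed replicate 2 was the highest, and with replicates 3 and 4 alone in each group the change was 0.93 and was no longer called. Ccr2 (ENSMUSG00000049103, chr9:124101950-124113557) was 755, 541, 753 and 684 in resting and 1313, 1269 and 1099.5 in inflamed libraries. All inflamed values were higher, by 0.84 ± 0.12 (adjusted p = 1.17e-04), and the change passed the 2-fold cutoff under upper quartile scaling (1.05) and with a correction for GC content (1.24). Ccr3, the eotaxin receptor, fell from 4.26, 1.85, 1.52 and 0.892 to 0.235, 0.0995 and 0.221 (log2 fold change -3.48 ± 0.65, adjusted p = 8.88e-04, and -2.84 without resting replicate 1), a difference between very low levels.

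Of the 13 chemokine receptor genes tested, 2 rose (15.4%) and 2 fell (15.4%), and 4 rose under upper quartile scaling. Of all genes 9.16% rose and 19.4% fell. Cxcr4 (ENSMUSG00000045382, chr1:128588199-128592293), which retains leukocytes in the marrow by binding CXCL12, fell from 24, 26.4, 28.3 and 26.9 to 3.85, 4.73 and 4.73 (log2 fold change -2.57 ± 0.15, adjusted p = 9.66e-08), with no overlap. Cx3cr1, the fractalkine receptor, was 193, 135, 203 and 205 in resting and 70.4, 129 and 131 in inflamed libraries, a change of -0.74 ± 0.23 with inflamed replicates 3 and 4 just below the lowest resting library.

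Chemokine ligand genes showed 1 rise (5.88%) and 4 falls (23.5%) among 17, near the 9.16% and 19.4% of all genes. Their median change was 0.27, compared with -0.25 for all genes. The falls numbered 2 without inflamed replicate 2 or under upper quartile scaling and 1 with replicates 3 and 4 alone. Ccl3, a ligand of CCR1, fell from 12.6, 13.9, 11.4 and 15.1 to 5.97, 5.82 and 5.79 (log2 fold change -1.18 ± 0.17, adjusted p = 1.11e-04). The interferon-induced CXCR3 ligand Cxcl10 fell from 14.2, 10.2, 9.05 and 12.2 to 2.73, 7.76 and 4.64 (log2 fold change -1.18 ± 0.31, adjusted p = 0.00921), and Ccl5, another ligand of CCR1, from 4.92, 2.62, 1.31 and 3.44 to 0.329, 0.995 and 1.24 (log2 fold change -1.84 ± 0.52, adjusted p = 0.0129). Without inflamed replicate 2 Cxcl10 changed by -0.89 and was not called. Ccl6 was measured at 996 to 1456 in resting and 1457 to 1678 in inflamed libraries and was not called. Cxcl1 was the 1 ligand that rose, but it had no read in any resting library and at most 0.265 CPM in inflamed ones, and its call was lost without inflamed replicate 4 (4.92).

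**Figure D2:**
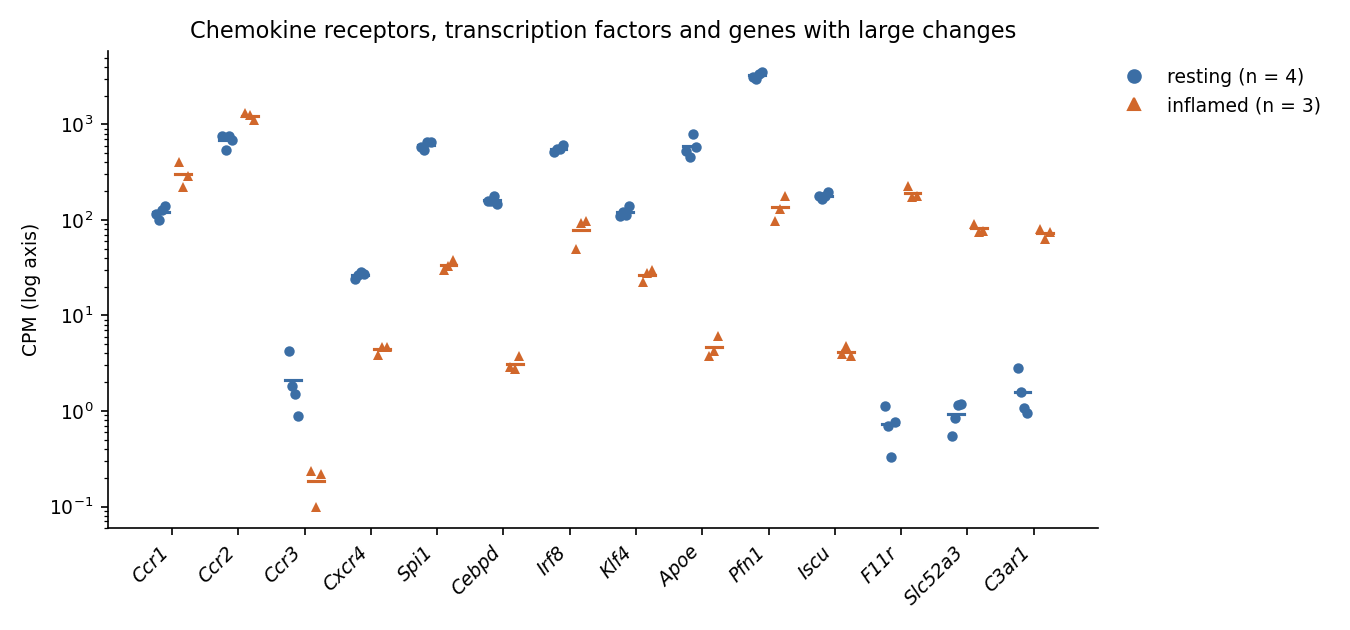
Levels in CPM (log axis) of chemokine receptors, transcription factors and genes with large changes in each library. Circles are the 4 resting and triangles the 3 inflamed CCR1/2+ve libraries, bars are group means. The states do not overlap for any gene shown. Spi1, Cebpd, Irf8, Apoe and Pfn1 lie lower and F11r, Slc52a3 and C3ar1 higher in inflamed libraries.

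Genes of microbial sensing rose while no gene of the list fell. Of 14 Toll-like receptor pathway genes, 8 rose (median 1.18). Tlr4, the receptor of bacterial lipopolysaccharide, rose from 38, 36.1, 49.4 and 36.7 to 153, 158 and 129 (log2 fold change 1.87 ± 0.13, adjusted p = 3.44e-07), and Tlr6, which pairs with TLR2 on lipopeptides, from 30.8, 26.2, 29.3 and 29.7 to 96, 82.7 and 93.2 (log2 fold change 1.64 ± 0.10, adjusted p = 1.49e-07). The adaptor genes Myd88 and Ticam1 rose by 1.66 ± 0.11 and 1.92 ± 0.17, without overlap between states. The endosomal RNA receptors Tlr7 (46.9, 39.7, 44.3 and 45.2 in resting and 71.2, 80.2 and 77.2 in inflamed libraries) and Tlr8 (65.1, 54.8, 65.5 and 61.5 in resting and 97.4, 105 and 92.2 in inflamed libraries) were also higher in every inflamed library, but below the 2-fold cutoff.

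Of 5 Fc receptor genes 2 rose. Fcgr1, the high-affinity IgG receptor, rose from 88.7, 51.7, 53.1 and 59 to 386, 414 and 359.8 (log2 fold change 2.61 ± 0.18, adjusted p = 9.6e-07), and Fcgr2b, the inhibitory IgG receptor, from 216, 194, 223 and 219 to 757, 574 and 634 (log2 fold change 1.62 ± 0.10, adjusted p = 1.97e-07). The 6 genes of the phagocyte NADPH oxidase had a median change of 0.71 and none was called. Cybb, its catalytic subunit, was 2138, 1706, 2194 and 2111 in resting and 2636, 3245 and 2971 in inflamed libraries.

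Costimulatory and inhibitory molecules rose in 5 of 14 cases and fell in none (median 0.87). Icosl, a T cell costimulator, rose from 39.3, 36.1, 42.5 and 45.8 to 134, 113 and 107 (log2 fold change 1.53 ± 0.12, adjusted p = 7.22e-07). Inhibitory receptors were among the genes that rose, including Pirb, from 361, 279, 378 and 332 to 1012, 895 and 848 (log2 fold change 1.44 ± 0.11, adjusted p = 8.85e-07), and Cd200r1, from 16.3, 19.1, 22.7 and 19.7 to 69.7, 48.9 and 55.2 (log2 fold change 1.57 ± 0.15, adjusted p = 4.7e-06).

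Inflammatory cytokine genes were expressed at low levels. Of 17 tested 2 rose (11.8%) and 3 fell (17.6%), near the 9.16% and 19.4% of all genes. The genes that rose were Il1rn, the antagonist of the IL-1 receptor, from 22.6, 16.3, 18.9 and 16.5 to 50.9, 46.6 and 40.9 (log2 fold change 1.31 ± 0.14, adjusted p = 1.39e-05), and Il18, from 21.3, 14.6, 11.3 and 12.5 to 38.6, 49.1 and 43.5 (log2 fold change 1.55 ± 0.20, adjusted p = 6.12e-05). Tnf fell from 3.79, 4.15, 6.76 and 4.4 to 0.846, 1.14 and 1.33 (log2 fold change -2.10 ± 0.31, adjusted p = 1.77e-04) and Tgfb1 from 17, 17.4, 12.2 and 12 to 3.29, 4.88 and 5.31 (log2 fold change -1.71 ± 0.23, adjusted p = 7.3e-05). The NF-kB list showed 1 rise and 6 falls among 16. Its fallers were targets and noncanonical members, such as Nfkb2 (20.8 to 33.6 in resting and 4.42 to 11.2 in inflamed libraries), Relb (6.94 to 10.6 in resting and 1.46 to 3.71 in inflamed libraries) and Nfkbiz (9.38 to 16.1 in resting and 4.02 to 5.22 in inflamed libraries). Nfkb1, the canonical p50 precursor, was 109.7 to 118 in resting and 190.3 to 209 in inflamed libraries, a change of 0.80 ± 0.08 below the cutoff.

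Adhesion genes changed in both directions, with 5 rises (25%) and 5 falls (25%) among 20. Of all genes 9.16% rose and 19.4% fell. F11r (ENSMUSG00000038235, chr1:171437535-171464603), the junctional adhesion molecule JAM-A, was 1.14, 0.698, 0.328 and 0.765 CPM in resting and 227, 174 and 180.1 CPM in inflamed libraries (log2 fold change 8.02 ± 0.26, adjusted p = 7.77e-09). It was close to absent from resting cells and present at a steady level in all 3 inflamed libraries. The beta-2 integrin genes Itgb2 and Itgal, which form LFA-1, rose from a range of 842 to 1048 to one of 2192 to 2299 (log2 fold change 1.26 ± 0.09, adjusted p = 3.23e-07) and from a range of 139 to 160.3 to one of 354 to 540.2 (log2 fold change 1.57 ± 0.13, adjusted p = 1.36e-06). Itgb1, the beta-1 integrin that binds matrix and VCAM-1, fell from 212, 180.0, 252 and 193 to 50.8, 61.8 and 55.3 (log2 fold change -1.90 ± 0.13, adjusted p = 3.52e-07). Selplg, the selectin ligand PSGL-1, was 885 to 972 in resting and 899.9 to 1003 in inflamed libraries, with overlap.

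Several transcription factors that specify monocytes had lower levels in inflamed libraries. Whether library preparation had a part in these falls was not tested, since the batch of each library is not given. Of 25 myeloid factors 11 fell and 2 rose, with a median change of -1.54. That median was -0.00 with a correction for GC content and -0.55 with replicates 3 and 4 alone. Spi1 (ENSMUSG00000002111, chr2:91082390-91115756), which encodes PU.1, the master regulator of myeloid cells, was 579, 534, 659.8 and 661 CPM in resting and 30, 32.9 and 37.9 CPM in inflamed libraries (log2 fold change -4.18 ± 0.13, adjusted p = 1.44e-09). Cebpd (ENSMUSG00000071637, chr16:15887286-15891031) was 159, 159, 178 and 148 in resting and 2.87, 2.74 and 3.8 in inflamed libraries (log2 fold change -5.68 ± 0.15, adjusted p = 1.29e-09). Klf4, required for Ly6C-high monocytes, fell from 111, 122, 114 and 139 to 22.5, 27.7 and 29.9 (log2 fold change -2.19 ± 0.13, adjusted p = 1.12e-07), and Irf8, which directs progenitors to the monocyte lineage, from 511, 547, 546 and 614 to 49.2, 91.8 and 97.2 (log2 fold change -2.80 ± 0.23, adjusted p = 9.15e-06). In each of the 4 genes the highest inflamed library was below the lowest resting one. The 2 factors that rose were Irf4, from 2.68, 3.07, 1.84 and 2.8 to 6.72, 11.8 and 9.64 (log2 fold change 1.85 ± 0.25, adjusted p = 9.09e-05), and Batf2 (log2 fold change 2.29 ± 0.35, adjusted p = 2.21e-04).

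Immediate early genes fell in 10 and rose in 2 of 21 cases (median -1.80, and -0.89 with replicates 3 and 4 alone). Ier2 fell from 392, 347, 361 and 398 to 6.72, 11.7 and 19.1 (log2 fold change -4.90 ± 0.33, adjusted p = 2.54e-06), Jun, a subunit of AP-1, from 30.6, 31.8, 23.1 and 36.4 to 2.11, 2.19 and 1.42 (log2 fold change -4.0 ± 0.23, adjusted p = 6.72e-08), and Klf2 from 34.2, 26.3, 30.6 and 38.8 to 4.09, 6.67 and 5.66 (log2 fold change -2.57 ± 0.20, adjusted p = 9.54e-07). Ier3 moved the other way, from 1.8, 2.13, 2.13 and 1.59 to 13.6, 8.11 and 13.2 (log2 fold change 2.61 ± 0.24, adjusted p = 3.44e-06). Fos, the other subunit of AP-1, was 108 to 158 in resting and 92 to 123 in inflamed libraries, with overlap.

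**Figure D3:**
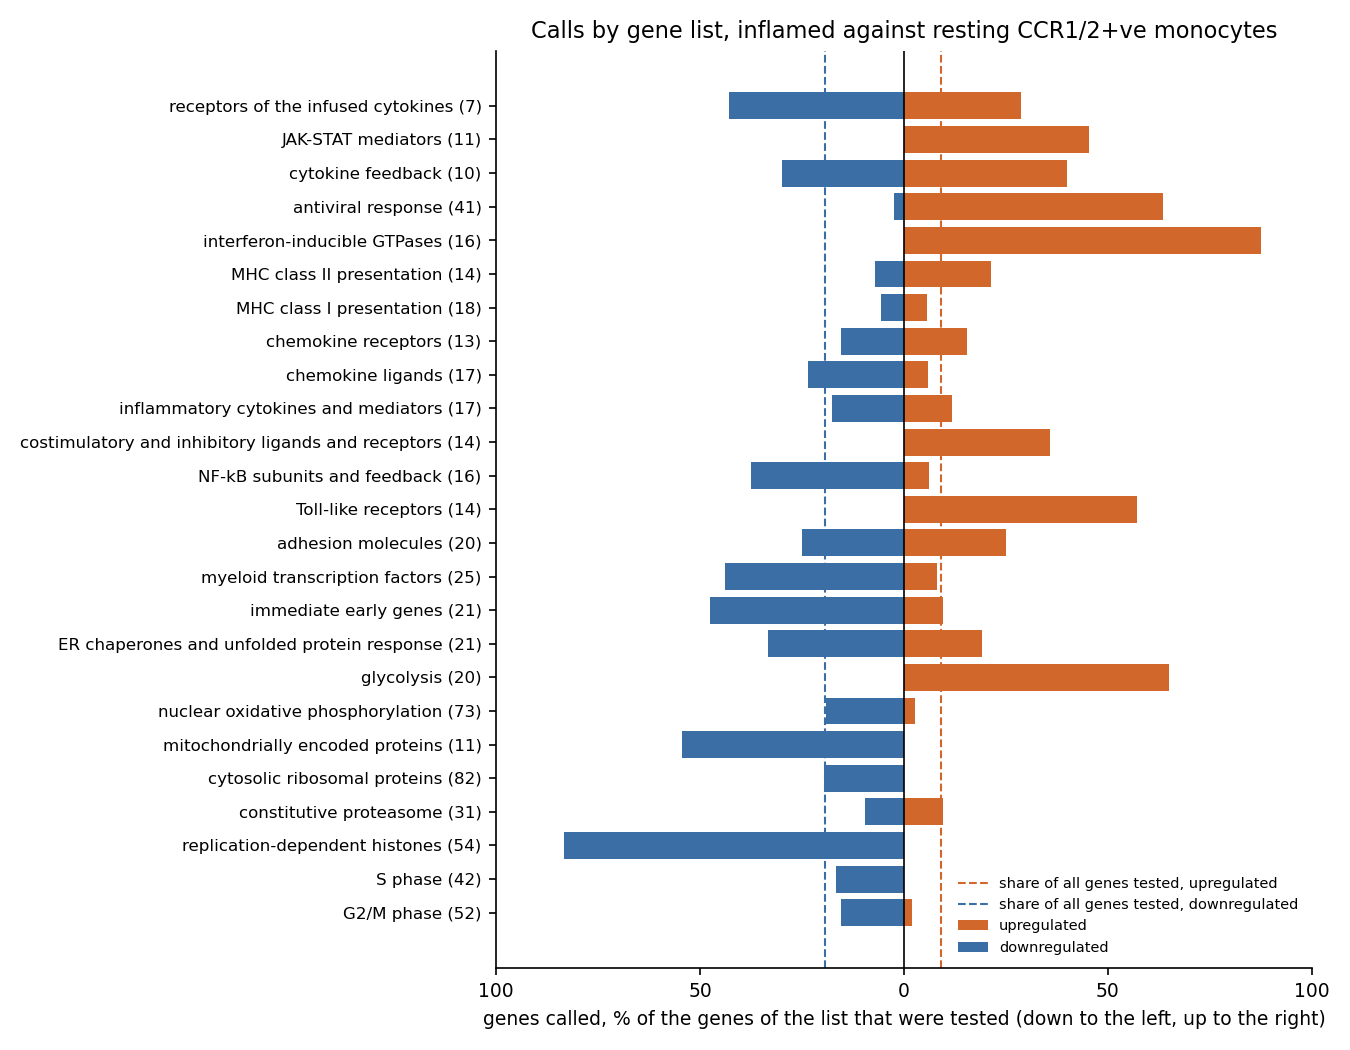
Share of the tested genes of the pathway and complex lists drawn that were called, in % (number tested in brackets), with upregulated genes to the right and downregulated genes to the left of 0. Dashed lines mark the shares among all genes tested, 9.16% and 19.4%. Of the lists drawn, the GTPases, glycolysis and antiviral lists reach furthest to the right and the histone, mitochondrial and immediate early lists furthest to the left.

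Glycolysis genes rose broadly. Of 20 genes 13 rose and none fell (median 1.40; 2 fell without inflamed replicate 4), and their summed level was 6211 to 7421 CPM in resting and 17270 to 19620 CPM in inflamed libraries. Eno1, the enolase of the lower pathway, rose from 1507, 1367, 1737 and 1568 to 6924, 6635 and 5804 (log2 fold change 2.06 ± 0.10, adjusted p = 1.86e-08). Pkm, pyruvate kinase, rose from 1784, 1652, 2066 and 1958 to 5536, 6087 and 5443 (log2 fold change 1.61 ± 0.09, adjusted p = 7.79e-08), Hk1, a hexokinase, from 45.8, 44.3, 54.4 and 51.9 to 149, 196 and 186 (log2 fold change 1.85 ± 0.12, adjusted p = 1.9e-07) and Pfkl, a phosphofructokinase, from 74.4, 84.9, 90.7 and 86 to 292, 314 and 272 (log2 fold change 1.80 ± 0.10, adjusted p = 4.55e-08). Inflamed and resting values did not overlap for any of the 4 enzymes. Ldha, lactate dehydrogenase A, was 363, 381, 412 and 401 in resting and 864, 760.2 and 640.2 in inflamed libraries, a change of 0.96 ± 0.10 just below the cutoff that passed it without inflamed replicate 4 (1.06).

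Nuclear genes of oxidative phosphorylation and ribosomal protein genes fell about as often as all genes tested, of which 19.4% fell. Of 73 nuclear genes of oxidative phosphorylation 2 rose and 14 fell (19.2%), none rose without inflamed replicate 4, and the median was -0.12 here and between -0.04 and 0.07 under other scalings. Cox5a, a subunit of cytochrome c oxidase, fell from 127, 124, 135 and 139 to 2.87, 2.39 and 4.11 (log2 fold change -5.39 ± 0.18, adjusted p = 2.13e-09), and Uqcrfs1, the iron-sulphur subunit of complex III, from 271, 270.1, 306 and 329 to 10, 12.6 and 12.7 (log2 fold change -4.64 ± 0.14, adjusted p = 1.29e-09). Uqcrc1, another subunit of complex III, was 676, 659.7, 707 and 707 in resting libraries but 156, 435 and 826 in the inflamed ones, from far below to above the resting range. It was called at -1.23 without inflamed replicate 4. Of 11 mitochondrially encoded genes 6 fell (median -1.16). The number was 4 without resting replicate 2 or under upper quartile scaling, and 2 with a correction for GC content (median -0.57). The 6 included mt-Nd1, from 800.1, 954, 659 and 729.7 to 291, 194 and 208 (log2 fold change -1.77 ± 0.17, adjusted p = 9.4e-06), and mt-Co1, from 1825, 2002, 1291 and 1549 to 804, 471 and 546 (log2 fold change -1.46 ± 0.21, adjusted p = 4.05e-04). Resting replicates 1 and 2 and inflamed replicate 2 were the highest of their groups for both.

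Of 82 cytosolic ribosomal protein genes 16 fell (19.5%) and none rose. Rps2 fell from 409.6, 444, 469 and 491 to 46.8, 49.9 and 47.8 (log2 fold change -3.23 ± 0.10, adjusted p = 1.44e-09) and Rps27 from 459, 379, 431 and 423 to 74.1, 85.3 and 113 (log2 fold change -2.22 ± 0.14, adjusted p = 2.09e-07). In contrast Rpl4 was 1442, 1429, 1628 and 1688 in resting and 1884, 1715 and 1586 in inflamed libraries, with overlap. The changes of the genes of this list ranged from -4.10 (Rpl13) to 0.46 (Rpl7l1). The list was drawn up by gene name and also holds related genes such as Rpl7l1, Rpl22l1 and Rpl32l. The proteasome showed 3 rises (9.68%) and 3 falls (9.68%) among 31 (median 0.54), and 9 rises under upper quartile scaling. Of all genes 9.16% rose and 19.4% fell. Psmd2, a subunit of its regulatory particle, rose from 286, 276, 338 and 318 to 942, 867 and 755 (log2 fold change 1.49 ± 0.10, adjusted p = 3.62e-07), and its assembly chaperone Psmd5 fell from 152, 168, 157 and 171 to 9.21, 12.1 and 19.2 (log2 fold change -3.58 ± 0.23, adjusted p = 8.59e-07).

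Gene length moved with the largest falls. Among genes of at least 16 CPM, 7.08% of those with the shortest exonic sequence (the first of 4 equal bins) fell by at least 8-fold, compared with 4.2%, 2.28% and 1.02% in the next bins. The median exonic length of the 243 genes that fell this far was 2891 bases, against 4532 bases for 4441 genes that were not called. The 16 ribosomal protein genes that fell had a median length of 1422 bases and the other 66 had 1989.5 bases. For nuclear oxidative phosphorylation the 14 fallers and the 59 others had nearly the same median, 1671.5 and 1675 bases. GC content moved with the rises, since 6%, 10%, 18% and 22.3% of the genes rose from the lowest to the highest of 4 bins. Over the same bins 2.7%, 2.82%, 3.54% and 5.53% fell by at least 8-fold, so these falls also grew with GC content. Over the bins of length 9.6%, 15.1%, 17.5% and 14.1% rose. With a correction for GC content, the falls numbered 1 rather than 4 among chemokine ligands, 38 rather than 45 among replication-dependent histones (median -2.43) and 5 rather than 8 in the G2/M list. With the same correction the rises numbered 5 rather than 2 among chemokine receptors, 8 rather than 5 among monocyte core genes, 3 rather than 1 in the NF-kB list, 5 rather than 3 in the proteasome and 4 rather than 2 in nuclear oxidative phosphorylation. Among the immediate early genes it moved Ier2 to -4.12 and Klf2 to -1.57, both still called. The part of length in the results was not tested. That of library preparation and sequencing run was not tested either, since neither is given for each library.

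**Figure D4:**
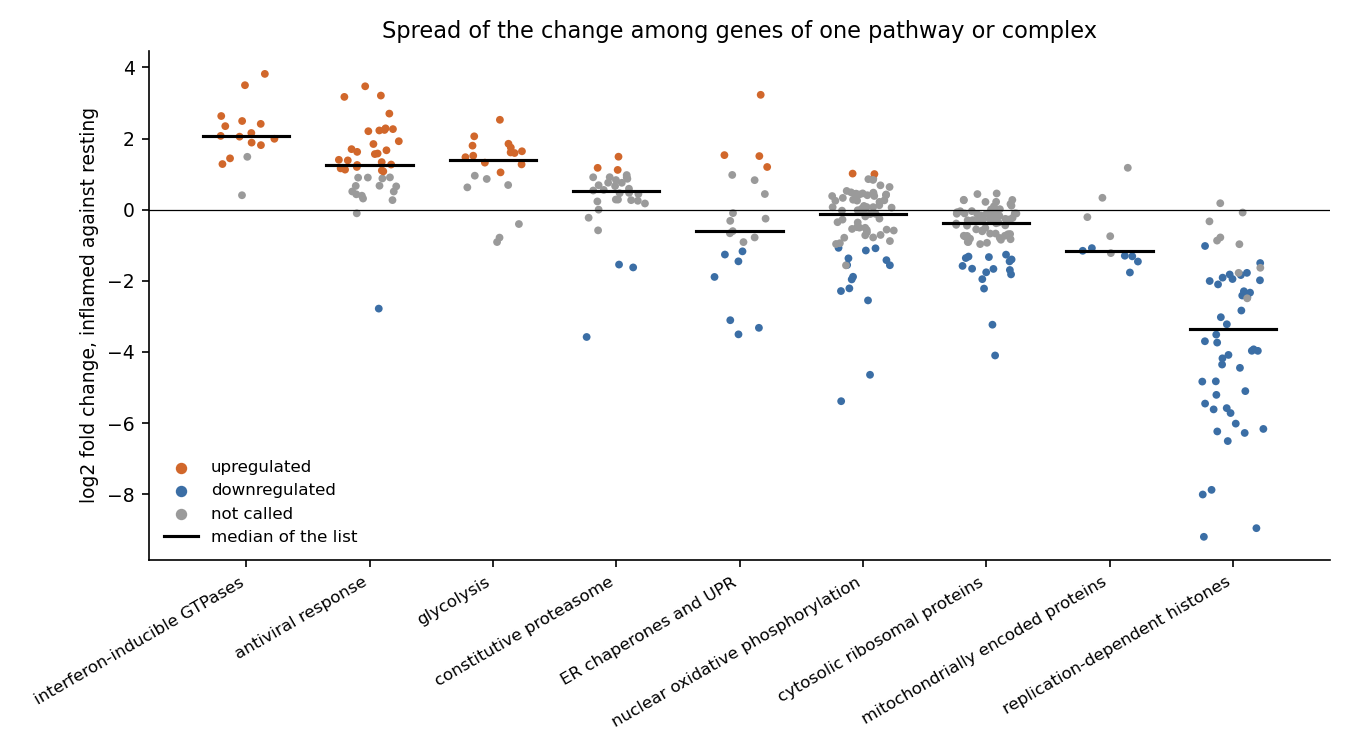
Log2 fold change of each tested gene of 9 lists, inflamed against resting CCR1/2+ve monocytes. Points are genes, coloured by call, and bars are list medians. The GTPase, antiviral and glycolysis genes lie mostly above 0 and the histone genes mostly below it, and single subunits of the ribosome, the proteasome and oxidative phosphorylation lie far below the median of their own complex.

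Replication-dependent histone genes fell together. Of 54 tested 45 fell and none rose, with a median of -3.37 (-2.90 where the 8 genes near 0 reads were set to their bound). The summed level was 284.6 to 323.4 CPM in resting and 97.38 to 122.3 CPM in inflamed libraries. Hist1h3d fell from 16.6, 17.9, 18 and 15.9 to 0.752, 0.647 and 0.929 (log2 fold change -4.45 ± 0.21, adjusted p = 1.51e-08) and Hist1h1c from 12.9, 16.1, 13.7 and 15.2 to 2.58, 2.79 and 3.23 (log2 fold change -2.33 ± 0.18, adjusted p = 9.1e-07). Mature transcripts of these genes end without a poly(A) tail, and many are near-identical copies. The S phase and G2/M lists moved little as a whole. In S phase 7 of 42 genes fell (16.7%), and in G2/M 8 of 52 fell (15.4%) and 1 rose (1.92%). Of all genes 19.4% fell and 9.16% rose. The medians of -0.26 and -0.03 turned positive under other scalings (up to 0.01 and 0.20). Individual genes fell far, such as Mcm6, a subunit of the replicative helicase, from 291, 356, 306 and 342 to 35.4, 28.4 and 34.5 (log2 fold change -3.30 ± 0.12, adjusted p = 4.23e-09), and Nek2, a mitotic kinase, from 67.2, 67.1, 72.3 and 76.4 to 10.7, 9.6 and 11.4 (log2 fold change -2.75 ± 0.12, adjusted p = 9.84e-09). Top2a, the topoisomerase of dividing cells, was 861, 954, 983 and 1014 in resting and 1106, 934 and 783 in inflamed libraries, and Rrm2 was 686, 769.6, 689.8 and 766 in resting and 359.5, 459 and 552 in inflamed libraries.

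Endoplasmic reticulum chaperones were divided, with 4 rises (19%) and 7 falls (33.3%) among 21, where 9.16% and 19.4% of all genes did. Hspa5, the chaperone BiP, rose from 1186, 1218, 1219 and 1307 to 2937, 2842 and 2717 (log2 fold change 1.20 ± 0.07, adjusted p = 1.46e-07) and the disulphide isomerase Pdia6 from 499.7, 497, 539.5 and 501 to 1732, 1488 and 1206 (log2 fold change 1.53 ± 0.11, adjusted p = 5.37e-07). Pdia3, an isomerase of glycoproteins, fell from 1300.3, 1316, 1394 and 1396 to 128, 133 and 144 (log2 fold change -3.32 ± 0.09, adjusted p = 1.29e-09), and Creld2 from 72, 68.8, 63.5 and 66.3 to 7.57, 8.86 and 7.12 (log2 fold change -3.11 ± 0.13, adjusted p = 7e-09). Their summed level was 7045 to 7600 CPM in resting and 7882 to 8717 CPM in inflamed libraries.

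The 5 upregulated genes with the smallest p were Slc52a3, Shtn1, Flna, Myh9 and F11r. Slc52a3 (ENSMUSG00000027463, chr2:151996511-152009258), a riboflavin transporter, was 0.551, 0.837, 1.15 and 1.18 CPM in resting and 91.5, 75.6 and 77.3 CPM in inflamed libraries (log2 fold change 6.45 ± 0.21, adjusted p = 1.8e-09). Flna, the actin cross-linker filamin A, rose from 624, 559.5, 673 and 629 to 3096, 3159 and 2737 (log2 fold change 2.27 ± 0.09, adjusted p = 6.19e-09) and Myh9, nonmuscle myosin IIA, from 103, 89.5, 92.3 and 82.4 to 477, 542 and 482 (log2 fold change 2.45 ± 0.10, adjusted p = 6.64e-09). Shtn1 rose from a range of 6.06 to 7.24 to one of 63.5 to 85.5. The 5 downregulated genes with the smallest p were Iscu, Otulinl, Pgp, Sap30 and Cebpd. Iscu (ENSMUSG00000025825, chr5:113772748-113778288), the scaffold of iron-sulphur cluster assembly, was 177, 165, 177 and 194 in resting and 3.99, 4.83 and 3.76 in inflamed libraries (log2 fold change -5.41 ± 0.13, adjusted p = 1.29e-09). Otulinl was 465, 473, 494 and 487 in resting and 20.8, 22.9 and 26 in inflamed libraries, Pgp, phosphoglycolate phosphatase, was 70.8, 75.2, 73.9 and 82.8 in resting and 1.79, 1.79 and 1.99 in inflamed libraries, and Sap30, part of a histone deacetylase complex, was 276, 239, 272 and 299 in resting and 4.61, 5.32 and 6.24 in inflamed libraries. All 10 genes were taken by p among called genes without overlap between states, leaving out clone names. The distance between their states thus followed from the choice.

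Of the most abundant genes called, Actb rose from 10239, 9189, 12000.0 and 10887 to 21253, 24752 and 23030.0 (log2 fold change 1.12 ± 0.10, adjusted p = 2.21e-06), F13a1, coagulation factor XIII, from 4679.8, 4889.8, 5429.9 and 5556 to 12393, 9786 and 8852 (log2 fold change 1.01 ± 0.11, adjusted p = 1.98e-05) and Ctsc, the protease cathepsin C that activates granule serine proteases, from 2387, 1728, 2305 and 1904 to 10727, 10994 and 9673 (log2 fold change 2.33 ± 0.12, adjusted p = 2.63e-08). Without inflamed replicate 2, F13a1 changed by 0.86 and was not called. Chil3, the chitinase-like protein Ym1, fell from 12340.0, 15767, 23773 and 25897 to 10018, 7273 and 4915 (log2 fold change -1.39 ± 0.31, adjusted p = 0.00509), and its levels varied about 2 times within each state. Tmsb4x, thymosin beta 4, which holds actin monomers, fell from 10043, 8978, 10713 and 9879 to 4489.6, 4668 and 4839 (log2 fold change -1.09 ± 0.08, adjusted p = 7.39e-07), Pfn1 (ENSMUSG00000018293, chr11:70651850-70654644), which delivers actin monomers to filaments, from 3169, 3003, 3384 and 3495 to 96.4, 131 and 178 (log2 fold change -4.59 ± 0.21, adjusted p = 9.52e-08), and Arpc2, a subunit of the Arp2/3 complex, from 2074, 1901, 2254 and 2226 to 357, 587 and 866 (log2 fold change -1.81 ± 0.26, adjusted p = 3.67e-04). Genes of the actin cytoskeleton were thus called in both directions. For Pfn1, Arpc2 and H2-D1 inflamed replicate 2 was the lowest and replicate 4 the highest inflamed library.

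Granulocyte genes did not move as 1 group. Of 21 mature neutrophil genes 10 rose (47.6%) and 3 fell (14.3%), where 9.16% and 19.4% of all genes did. Their median change was 1.48, compared with -0.25 for all genes. The summed level was 3770 to 4398 CPM in resting and 3883 to 4334 CPM in inflamed libraries. In resting libraries a large part of this sum came from S100a8, which fell. Csf3r, the G-CSF receptor, rose from 205, 168, 197 and 166 to 533, 515 and 494 (log2 fold change 1.48 ± 0.10, adjusted p = 2.44e-07), and Retnlg, a neutrophil resistin-like protein, from 0.0367, 0.0698, 0.205 and 0 to 3.9, 4.63 and 7.16 (log2 fold change 6.07 ± 0.59, adjusted p = 5.84e-06, and 7.05 without resting replicate 3). S100a8, a subunit of calprotectin, fell from 1882, 2129, 1615 and 2054 to 452, 307 and 466 (log2 fold change -2.23 ± 0.16, adjusted p = 7.82e-07). Ly6g, the defining neutrophil antigen, was 0.294, 0.454, 0.778 and 0.573 in resting and 0.658, 1.09 and 1.46 in inflamed libraries, with overlap. The genes of early granules fell in 5 of 8 cases (62.5%) and rose in none, with sums of 3584 to 8032 and 1134 to 1515 CPM. Mpo, myeloperoxidase, fell from 1910.4, 3520.5, 1347 and 1268 to 192, 122 and 115 (log2 fold change -3.81 ± 0.42, adjusted p = 6.24e-05), Elane, neutrophil elastase, from 1833, 3008, 1454 and 1369 to 676, 388 and 395 (log2 fold change -1.98 ± 0.32, adjusted p = 8.27e-04) and Prtn3, proteinase 3, from 529, 716, 485 and 429.9 to 245, 239 and 217 (log2 fold change -1.21 ± 0.16, adjusted p = 7.95e-05). With a correction for GC content Prtn3 changed by -0.38 and was not called. Resting replicate 2 was the highest library for all 3 genes.

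Progenitor genes fell as well. Of 11 tested 5 fell and none rose, among them Cd34, from 14.5, 21.4, 17.9 and 16.2 to 0.423, 1.39 and 1.28 (log2 fold change -4.08 ± 0.33, adjusted p = 1.21e-06), and Myb, from 22.8, 33.9, 14.6 and 17.2 to 1.41, 2.44 and 1.64 (log2 fold change -3.60 ± 0.34, adjusted p = 8.97e-06). Summed levels were 45.96 to 78.29 CPM in resting and 11.76 to 14.53 CPM in inflamed libraries.

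Macrophage genes did not move as a group, with 5 rises (25%) and 7 falls (35%) among 20. Of all genes 9.16% rose and 19.4% fell. Apoe (ENSMUSG00000002985, chr7:19696109-19699188), apolipoprotein E, showed the largest fall of the list, from 526, 459, 792 and 582 to 3.81, 4.28 and 6.06 (log2 fold change -6.96 ± 0.28, adjusted p = 6.3e-08). Adgre1, the antigen F4/80, rose from 192, 172, 233 and 196 to 574, 598 and 569.6 (log2 fold change 1.55 ± 0.10, adjusted p = 2.71e-07), as did the lysosomal Cd68, from 628, 496, 640.1 and 592 to 1150.1, 1322 and 1203 (log2 fold change 1.06 ± 0.10, adjusted p = 5.01e-06), which lay just below the cutoff without inflamed replicate 3 (1.00). Dendritic cell genes showed 4 rises (21.1%) and 5 falls (26.3%) among 19. Cd209a, a lectin of monocyte-derived dendritic cells, fell from 29.7, 11.5, 6.55 and 9.69 to 0.517, 0.348 and 1.24 (log2 fold change -4.33 ± 0.67, adjusted p = 6.39e-04, but -3.65 without resting replicate 1 and -5.04 without inflamed replicate 4), Flt3 fell from a range of 3.79 to 6.85 to one of 0.896 to 1.03 and Kmo rose from a range of 9.28 to 15.5 to one of 27.8 to 34.2.

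Markers of other marrow cells were low but not absent. Erythroid genes fell in 8 of 11 cases, and their sum was 69.42 to 197.3 CPM in resting and 2.256 to 5.424 CPM in inflamed libraries. Hbb-bs, a beta globin with a near-identical copy, was 34.1, 43.5, 47.5 and 102 in resting and 0.564, 0.547 and 1.19 in inflamed libraries (log2 fold change -6.18 ± 0.53, adjusted p = 1.29e-05), with the highest value in resting replicate 4. Basophil and mast cell genes rose in 5 of 7 cases, with sums of 7.07 to 31.9 and 138 to 182 CPM. Only 3 rose with DESeq2, with no filter on low counts and without resting replicate 1, 2 or 4 or inflamed replicate 2 or 3. The median level of the 7 genes was 0.386 CPM in resting and 4.57 CPM in inflamed libraries. A few genes thus held most of the inflamed sum. Fcer1a, the IgE receptor, was 0, 0, 0.574 and 0 in resting and 5.5, 4.68 and 3.54 in inflamed libraries (log2 fold change 5.07 ± 1.01, adjusted p = 0.0028). Only resting replicate 3 held reads of Fcer1a among the resting libraries, and without it the fitted change was 9.85, a value set by the prior count and no bound. B cell genes showed 1 fall (10%) among 10. They summed to 679 to 758 and 927 to 1651 CPM. Most of it came from Ighm, at 723, 644, 716 and 711 in resting and 908, 1631 and 1161 in inflamed libraries. T and NK cell genes showed 1 rise (11.1%) and 1 fall (11.1%) among 9, with sums of 32.5 to 93.1 and 7.27 to 8.32 CPM. These sums came mostly from Nkg7, at 59.1, 91.4, 31.1 and 32.1 in resting and 6.06, 5.08 and 5.13 in inflamed libraries. Plasma cell, eosinophil, megakaryocyte and stroma genes summed to at most 17.5 CPM in any library, and in these lists Epx and Gp1bb had no read in either state. The part of these cells in the results above was not tested.

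The 2 gene tables of the study overlapped this comparison differently. The first list holds neutrophil genes that separated CCR1/2+ve from CCR2+ve monocytes at rest. The study marked those raised in the cells with both receptors in both states. Of its 58 genes, 8 rose (13.8%) and 15 fell (25.9%) here, where 9.16% and 19.4% of all genes did. The marked genes were not counted apart. The second list holds genes raised by inflammation in CCR2+ve monocytes. Its 50 genes all rose here, with a median change of 2.08 and sums of 3732 to 4420 and 15670 to 17010 CPM. Kcnab2, a potassium channel subunit of that list, rose from 86.4, 81.2, 104 and 103 to 555, 509 and 518 (log2 fold change 2.49 ± 0.11, adjusted p = 9.77e-09). The first list was chosen on resting libraries used here and is no independent evidence of its direction, and the second was chosen on CCR2+ve libraries of the same experiment.

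CCR2+ve monocytes of the same treatment served to ask whether the response was particular to CCR1/2+ve cells. Their own comparison of 4 inflamed with 4 resting libraries shared no library with the one above, although whether the 2 populations came from the same mice is not given. It called 1748 genes up and 3579 down, and 1124 genes rose in both populations, 65.8% of those in CCR1/2+ve and 64.3% of those in CCR2+ve cells. For falls the shared number was 2786, or 77.1% and 77.8%. No gene rose in CCR1/2+ve and fell in CCR2+ve cells, and 5 genes fell in CCR1/2+ve and rose in CCR2+ve cells. These were C1qa, Gm23303, Gm43658, Myo15b and Zdhhc2, all at low levels, and C1qa was the 1 gene of the 5 whose fall in CCR1/2+ve cells kept its call under every alternative run.

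The difference between the 2 responses was tested in a single fit of 15 libraries. It was called for 40 genes (0.214% of those tested), 17 with a higher and 23 with a lower change in CCR1/2+ve cells. C3ar1 (ENSMUSG00000040552, chr6:122847138-122856161), the receptor of the complement fragment C3a, rose from 2.79, 1.57, 1.07 and 0.956 to 79.7, 63.2 and 75.5 CPM in CCR1/2+ve cells (log2 fold change 5.51 ± 0.32, adjusted p = 7.4e-07). Its change in CCR2+ve cells was 3.56 ± 0.17, and the difference was 1.91 ± 0.33 (adjusted p = 0.0273). Isg20, an antiviral exonuclease, rose from 22.1, 15.5, 13.5 and 17.1 to 40.1, 41.4 and 40.8 with a change of 1.26 ± 0.16 compared with -0.22 ± 0.17 in CCR2+ve cells (difference 1.44, adjusted p = 0.0273). Irf4 changed by 1.85 ± 0.25 and 0.37 ± 0.14 (difference 1.43, adjusted p = 0.0273).

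The complement C1q genes went the other way. C1qa was 10.8, 5.09, 4.06 and 3.35 CPM in resting and 1.74, 0.896 and 1.64 CPM in inflamed CCR1/2+ve libraries, a change of -2.02 ± 0.44, whereas in CCR2+ve cells it changed by 1.19 ± 0.38 (difference -3.25, adjusted p = 0.0273). C1qb changed by -1.06 ± 0.43 and 1.71 ± 0.30, and C1qc by -2.65 ± 0.54 and 0.44 ± 0.33 (adjusted p of the differences 0.0455 and 0.0447, edgeR). The fall of C1qb was not called, but it was called without resting replicate 4 (-1.23) or inflamed replicate 2 (-1.497), with the filter of filterByExpr (-1.06) and with all 15 libraries in 1 fit (-1.09). C1qc changed by -3.27 without inflamed replicate 4. These 3 genes are expressed by marrow macrophages, and resting replicate 1 held the highest level of each. Ccr3 fell in CCR1/2+ve cells as given above and changed by 0.92 ± 0.67 in CCR2+ve cells (difference -4.44, adjusted p = 0.0447). Ccr2 changed by 0.84 ± 0.12 in CCR1/2+ve and -0.03 ± 0.11 in CCR2+ve cells. The difference of 0.83 had an adjusted p of 0.0478 but lay below the 2-fold cutoff.

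The list of 40 genes depended on single libraries and on the test. DESeq2 called 151 genes in the same design, and edgeR 121 with a replicate block within states. With edgeR no gene was called without inflamed CCR1/2+ve replicate 3, where 1827 genes had an unadjusted p below 0.05 compared with 2419 with all libraries. In the same test 5 genes were called without resting replicate 2, and between 27 and 58 without any other CCR1/2+ve library. No difference in response was called for the GTPases, Toll-like receptors or glycolysis genes, although the median of the GTPases was 2.06 in CCR1/2+ve and 1.02 in CCR2+ve cells.

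**Figure D5:**
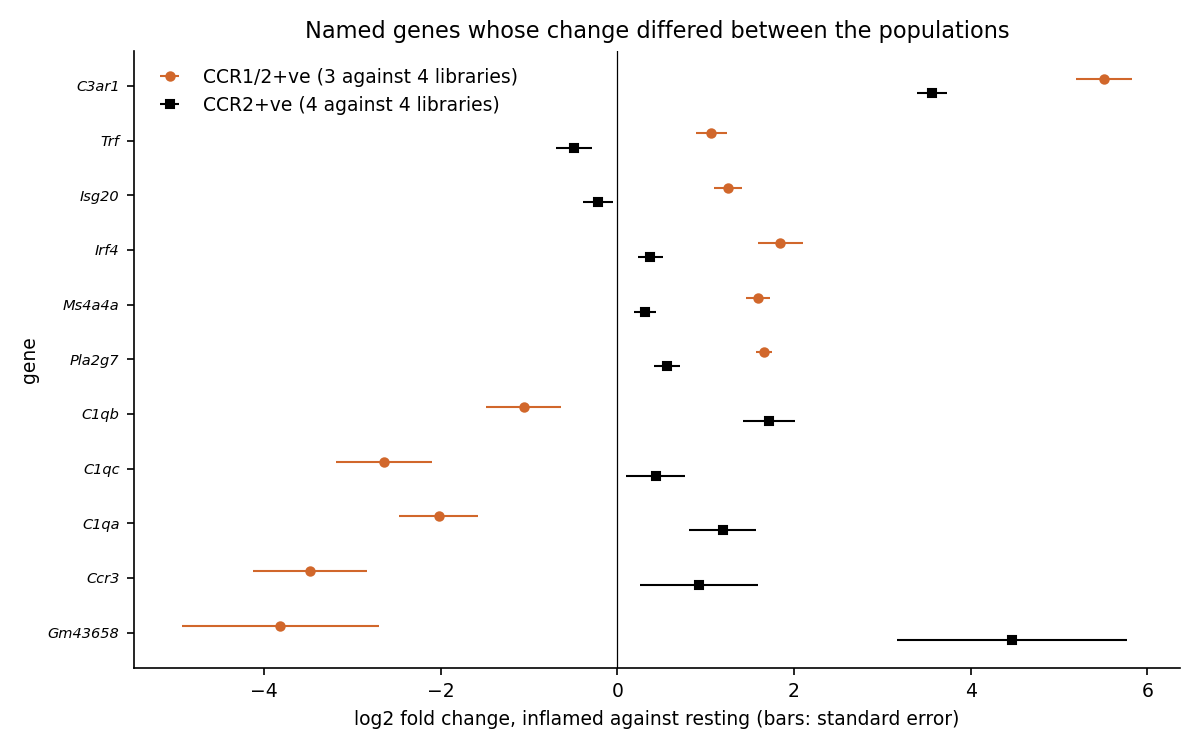
Log2 fold change of inflamed over resting libraries for the 11 genes named in the text among the 40 whose response differed, in CCR1/2+ve (circles, 3 against 4 libraries) and CCR2+ve monocytes (squares, 4 against 4). Bars are approximate standard errors, from the change and its F value. C3ar1, Isg20 and Irf4 changed more in CCR1/2+ve cells, and the 3 C1q genes lie on opposite sides of 0.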

How the data were processed

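Bulk RNA was sequenced from sorted bone marrow monocytes (NEBNext Single Cell/Low Input kit). The authors aligned reads with STAR 2.7.10a to GRCm38 and deposited raw counts of uniquely aligned reads per gene. The counted strand is not given in the sources used here, so reads in the overlaps of Nfkb2, Pkm, Csf1r, Cebpd, Mpo and Pim1 with other genes cannot be assigned. Of 20 columns of counts, 1 matched no sample record and was not used. Chromosome 14 and parts of other chromosomes were not analysed here. The authors' own comparison columns (fold changes and p-values) were not used.

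Positions and names came from GENCODE M21, and 110 IDs had none. Counts as deposited were tested with edgeR 4.0.16 (R 4.3.3, quasi-likelihood F test, TMM factors over the 7 libraries, robust dispersions), for the 18652 of 50854 genes whose mean over 19 libraries reached 1 read. Calls required an adjusted p under 0.05 and a log2 change of 1 or more. CCR2+ve libraries were fitted alone, and the difference in response as an interaction over 15 libraries. A floor of 3 reads over a group replaced 0 in bounds. The code of both fits was checked on simulated counts with equal numbers of rises and falls. That check did not test the scaling under the uneven calls seen here. Total counts set the precision, and PCR duplicates were not removed by molecular identifiers. Alternatives were DESeq2 1.42.0, other factors and filters, GC offsets, a replicate block and leaving out each library.

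Groups came from the labels. Gene lists were written by hand, cell cycle lists came from Seurat 5.3.0, and the comparison and lists were chosen with earlier results of these data known. Named genes were the reporter receptors and the cytokine receptors. From each list, up to 4 called genes with the smallest p and up to 2 abundant genes not called were added. So were the 5 called genes each way with the highest level. The 5 genes each way with the smallest p, among called genes without overlap between states or a clone name, were also named. The genes outside this rule (Batf2, C1qa, C1qc, C3ar1, Csf1r, Fos, Gbp2, Irf7, Irf8, Isg15, Isg20, Ly6c2, Ly6g, Ms4a4a, Oas3, Pla2g7, Rsad2, Socs3, Trf, Usp18 and 4 low genes of the comparison with CCR2+ve cells) were chosen after their values were seen. Some genes are not reported here.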

Additional observations from a re-analysis of the deposited data

Results flagged for a closer look

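For the genes named in the text, a difference between the 2 populations in their response was tested as an interaction in edgeR over 15 libraries, and 18 genes had an adjusted p below 0.05. The values are the change in CCR1/2+ve minus that in CCR2+ve cells, on the log2 scale. Higher changes in CCR1/2+ve cells were found for C3ar1 (1.91), Isg20 (1.44), Irf4 (1.43), Pla2g7 (1.05), Ms4a4a (1.23), Trf (1.52), Ccl6 (0.98), Cybb (0.97), Tlr7 (0.92), Ccr2 (0.83) and Adgre1 (0.80). Lower changes were found for Gm43658 (-8.37), Ccr3 (-4.44), C1qa (-3.25), C1qc (-3.12), C1qb (-2.81), Cox5a (-0.97) and Pgp (-0.92). Differences below 1 in size did not count as called. Without inflamed CCR1/2+ve replicate 3 none of 18652 genes passed both cutoffs.

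Among the 4 resting libraries, 1 library stood apart from the other 3 by Dixon's criterion (its gap to the nearest library against the whole range) in 15 of the named genes. Chance marks about 1 in 20 groups, and the 3 inflamed libraries were too few for this criterion. Resting replicate 1 was the highest for Cd74 (340 CPM), Irgm2 (64.1 CPM), Gbp9 (48.7 CPM), H2-Aa (47.4 CPM), Kmo (15.5 CPM) and Socs1 (12 CPM), of which Cd74, H2-Aa, Irgm2, Gbp9 and Socs1 are induced by interferons. Resting replicate 2 was the lowest for Cybb (1710 CPM), Ighm (644 CPM) and Cx3cr1 (135 CPM) and the highest for Fos (158 CPM). Resting replicate 3 was the highest for Pdia6 (540 CPM), Tlr4 (49.4 CPM), Stat5a (38.5 CPM) and Fcer1a (0.574 CPM), and replicate 4 for Il6st (0.223 CPM).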

How the results depend on the processing

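Of 135 named genes that were called, 114 kept their call and direction under every alternative and none changed direction. Many of them were named for a small p or after their values were seen, so this count does not describe all called genes. With no fold cutoff 3844 genes were upregulated. The upregulated share of calls was 32.1%, but 43.1% with upper quartile factors, 44.2% with GC offsets and 45.6% with GC offsets and the replicate block. Leaving out each library gave 1562 to 1818 upregulated and 3115 to 3529 downregulated genes, 0 to 58 genes with a different response in CCR2+ve cells (40 with all libraries, 151 with DESeq2) and 54.0% to 56.2% of variance on the first component. That share was 53.7% with all libraries and 63.2% with the filter of filterByExpr. The cause was not tested. Same-numbered resting and inflamed libraries deviated together by correlations of 0.20, 0.07 and 0.07 over 6437 genes, so the numbers were not taken to pair them, and the replicate block gave 1795 and 3120 genes. Between populations, same-numbered libraries correlated at 0.321 to 0.706 in the resting and at 0.357, 0.568 and -0.351 in the inflamed state, where replicate 4 correlated best with CCR2+ve replicate 3. With the replicate block within states 121 genes differed in response. Under the block Stat2 (1.77), Gbp2 (1.97), Chil3 (-1.55), Cxcl1 (5.27), Fcer1a (5.04) and F13a1 (0.99) were no longer called. Parting replicates 1 and 2 from 3 and 4, or using 3 and 4 only, was chosen after seeing the data and gave 1697 and 1681 upregulated and 3531 and 2762 downregulated genes. With 3 and 4 only Ccl5 changed by -1.09 and was not called. The block left 7 of 16 GTPases, 3 of 11 JAK-STAT genes and 2 of 7 basophil and mast cell genes upregulated. Upper quartile factors moved Ptpn1 to -0.92, Ccl3 to -0.98 and Tmsb4x to -0.89, below the call. GC offsets moved Prtn3 to -0.38, Ccl3 to -0.94, Tmsb4x to -0.92 and Cxcl10 to -0.99, below the call, and Tlr7, Tlr8 and Nfkb1 to 1.15, 1.05 and 1.09, above it. Genes not called turned direction as follows. Top2a was 0.0645 with DESeq2 and with RLE factors, 0.19 with upper quartile factors, 0.30 with GC offsets, 0.22 with GC offsets and the replicate block and -0.1543 to 0.092 with a library left out. Il6st was 0.18 with the replicate block, 0.29 with GC offsets added, and -1.19 to 3.35 with a library left out. In the same way Iigp1 ranged from -0.0719 to 2.01 and Irgm1 from -0.0587 to 0.626, and Rpl4 was -0.0062 with replicates 3 and 4 only. The filter of filterByExpr left no megakaryocyte gene to test.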

Other observations

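Pla2g7, Trf and Ms4a4a were also among the 40 genes whose response differed between the populations, and were chosen after their values were seen. Pla2g7, which encodes platelet-activating factor acetylhydrolase, was 102, 86.8, 91.9 and 89.8 CPM in resting and 284, 284 and 309 CPM in inflamed CCR1/2+ve libraries (log2 fold change 1.66 ± 0.09, adjusted p = 4.91e-08, edgeR), and its change in CCR2+ve cells was 0.56 ± 0.14. Trf, which encodes transferrin, was 7.53, 5.37, 6.43 and 5.22 in resting and 13.2, 13.4 and 12 in inflamed libraries (log2 fold change 1.07 ± 0.18, adjusted p = 4.24e-04), compared with -0.49 ± 0.20 in CCR2+ve cells. Without resting replicate 4 Trf changed by 0.996 and was not called. Ms4a4a, a membrane protein of the family that includes CD20, was 118, 77, 95.7 and 83.1 in resting and 307, 277 and 261 in inflamed libraries (log2 fold change 1.59 ± 0.14, adjusted p = 2.2e-06), compared with 0.32 ± 0.12 in CCR2+ve cells.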
